A study of Homo sapiens with 2 samples.

Results

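The 10 genes described here are parts of the canonical Wnt pathway, namely the R-spondin receptors LGR4 and LGR5, the Wnt receptors LRP6 and FZD6, the receptor ligases RNF43 and ZNRF3, the scaffold AXIN2, beta-catenin (CTNNB1), and the DNA-binding factors TCF7 and TCF7L2. They were listed by symbol from a table of 62699 genes, with earlier results of the same libraries known, so their ratios are a description. RNA sequencing of polyadenylated RNA was done in HCC1954, an established human breast cancer cell line labelled HER2-positive. The genotype label of 1 library is ASO-1235 and that of the other is ASO-NC, and the series asks about LINC01235, a long non-coding RNA. The sources used here state neither a dose, nor a time after treatment, nor the sequence of the agents.

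In canonical signalling, a Wnt ligand bridges a frizzled receptor and LRP5 or LRP6, and the complex that marks beta-catenin for breakdown is then disabled. Beta-catenin accumulates and turns on genes together with TCF/LEF factors. Several of these genes, among them AXIN2, RNF43, ZNRF3 and LGR5, act back on the pathway: AXIN2 rebuilds the destruction complex, RNF43 and ZNRF3 remove frizzled receptors from the cell surface, and LGR receptors with R-spondin counteract both ligases. LGR5 marks stem cells of the intestine and of other epithelia.

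The ASO-1235 library held 37916307 counts and the ASO-NC library 48092494. With 1 library per group, no difference has a replicate check and no p-value is given. Levels are given in CPM, counts scaled to the same total in each library, after TMM scaling, a method that centres the ratios of most genes, and ratios are ASO-1235 over ASO-NC with exact 95% intervals that cover counting error only. LINC01235, the named target, had 0 counts in the ASO-1235 library, against 1337 in the ASO-NC library. Of 12 markers of HER2-positive breast epithelium, 11 reached 1 CPM, with ERBB2 at 4628 CPM in ASO-1235 and 4860 CPM in ASO-NC. Markers of fibroblasts summed to 58.8 CPM in ASO-1235 and 72.2 CPM in ASO-NC, and 3 of 10 reached 1 CPM. By the rule for calls given below, FAP was called higher (53 counts in ASO-1235 and 28 in ASO-NC) and FBLN1 lower (646 in ASO-1235 and 1236 in ASO-NC). FAP reached 1 CPM through the ASO-1235 library alone. Among genes of abundance similar to FAP, 36.1% were called higher, and among those similar to FBLN1, 0.696% were called lower. Of all genes, 6.4% were called higher and 2.95% lower. COL1A1, with 1559 counts in ASO-1235 and 2067 in ASO-NC, was not called, and POSTN and PDGFRB had 0 counts in both. Basal and myoepithelial markers summed to 9.96 CPM in ASO-1235 and 6.30 CPM in ASO-NC. Of 8 such markers 4 reached 1 CPM, all with ratios above 1, and 2 were called higher: ACTA2, the gene of smooth muscle actin, with 38 counts in ASO-1235 and 0 in ASO-NC, and OXTR, the oxytocin receptor gene, with 169 in ASO-1235 and 112 in ASO-NC. ACTA2 reached 1 CPM through the ASO-1235 library alone, and 36.1% of genes of similar abundance were called higher. For OXTR that share was 9.21%. KRT17 at 1.21 (0.902 to 1.62) and TP63 at 1.21 (0.878 to 1.67) were not called, and their intervals included 1. Of the markers below 1 CPM, CNN1 had 4 counts in each library and MYH11 had 0 in ASO-1235 and 2 in ASO-NC. KRT5 and KRT14 had 0 counts in both libraries. Markers of immune cells summed to 2.66 CPM in ASO-1235 and 3.23 CPM in ASO-NC, and the 1 of 10 at 1 CPM, LYZ, was called lower (44 counts in ASO-1235 and 98 in ASO-NC). Among genes of abundance similar to LYZ, 9.90% were called lower. Those of endothelial cells summed to 8.27 CPM in ASO-1235 and 8.99 CPM in ASO-NC. VWF, the 1 of 8 that reached 1 CPM, was not called. Among genes of abundance similar to VWF, 5.44% were called higher and 2.37% lower. The part of other cell types in the ratios below was not tested.

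A gene was called at 1.5-fold with an interval that excluded 1, provided it reached 1 CPM by total count in at least 1 library. Of the 10 genes, 9 reached that minimum and AXIN2 did not. LGR5 and TCF7 were called higher in the ASO-1235 library, 0 members were called lower, and the other 7 lay within 1.5-fold. Across all 14352 genes at the minimum, 6.4% were called higher and 2.95% lower (919 and 423 genes), a split of calls that became 1235 and 284 when libraries were scaled by total counts alone. At 2-fold, which LGR5 and TCF7 passed as well, 2.53% of genes were called higher and 0.516% lower, and with intervals on halved counts 5.2% were called higher and 2% lower at 1.5-fold. Both called members reached 1 CPM through the ASO-1235 library alone, so any such gene had to be higher there by total count, and the background in their range of abundance was much larger: among the 718 genes of lowest abundance, 36.1% were called higher and 14.3% lower.

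**Figure D1:**
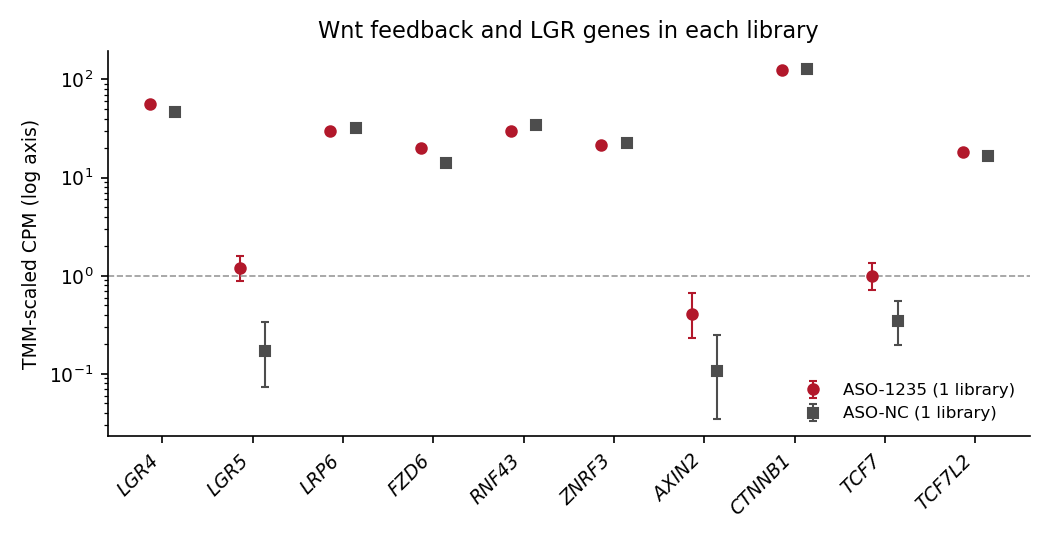
TMM-scaled CPM of the 10 genes (log axis) in the ASO-1235 library (circles) and the ASO-NC library (squares), with exact Poisson 95% intervals for counting error. The dashed line marks 1 CPM; LGR5, AXIN2 and TCF7 lie near or below it in both libraries, whereas the other 7 genes lie between 14.01 and 127 CPM.

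RefSeq promoter windows spanned 250 bases before to 50 after an annotated start (GRCh38.p14). They were matched for 5 members, LGR4, RNF43, TCF7, TCF7L2 and CTNNB1, with 9 windows in all. FZD6 was left out by its position before windows were matched, so its promoters were not tested. The matched windows were searched on both strands for the TCF/LEF core, CTTTG followed by 2 bases that are each A or T. Of these 9 windows 2 held it, 1 of TCF7 and 1 of TCF7L2, and 13.8% of 35116 windows in the table did. The larger set was not filtered by position in the same way, so no comparison of members with it is drawn. The 2 windows of TCF7, the member called higher that has windows, are shown beside the motif-bearing window of TCF7L2, the factor of the same family that was not called. Capitals mark the motif, which starts at −50 in the second TCF7 window and at −133 in the TCF7L2 window, counted from the annotated start. The TCF7 windows lie on the plus strand at chr5:134115363-134115662 and chr5:134123368-134123667, and that of TCF7L2 at chr10:113126383-113126682 on the plus strand.
TCF7 window 1: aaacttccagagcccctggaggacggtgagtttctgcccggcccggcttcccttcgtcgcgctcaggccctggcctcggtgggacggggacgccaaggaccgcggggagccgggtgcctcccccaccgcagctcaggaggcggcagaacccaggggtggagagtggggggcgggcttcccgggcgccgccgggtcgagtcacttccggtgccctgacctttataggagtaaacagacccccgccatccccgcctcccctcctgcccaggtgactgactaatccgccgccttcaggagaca
TCF7 window 2: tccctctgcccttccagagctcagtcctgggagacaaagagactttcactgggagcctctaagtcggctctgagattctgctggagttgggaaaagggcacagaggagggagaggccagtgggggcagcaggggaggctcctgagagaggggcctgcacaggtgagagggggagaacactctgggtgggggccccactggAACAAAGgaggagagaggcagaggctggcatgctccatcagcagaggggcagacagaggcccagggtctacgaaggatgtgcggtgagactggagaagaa
TCF7L2 window 2: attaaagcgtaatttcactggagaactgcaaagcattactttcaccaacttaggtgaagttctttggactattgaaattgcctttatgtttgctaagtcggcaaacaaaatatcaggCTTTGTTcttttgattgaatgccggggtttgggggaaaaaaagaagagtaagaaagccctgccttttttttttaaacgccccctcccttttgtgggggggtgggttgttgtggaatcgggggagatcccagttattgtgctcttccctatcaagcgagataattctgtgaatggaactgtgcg
A letter match is not a bound site, and counts per gene do not show which start was used.

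LGR5, a receptor for R-spondins, had the highest ratio of the 10 genes. The gene spans 71439770 to 71586310 on chromosome 12 (plus strand, GRCh38, GENCODE 29) and has 6 annotated transcripts. It had 47 counts (1.20 CPM, 0.884 to 1.60) in the ASO-1235 library and 8 counts (0.171 CPM, 0.0740 to 0.338) in the ASO-NC library. The Poisson intervals of the libraries did not overlap, and both levels were low. The ratio was 7.03 (3.29 to 17.2). Of genes with 1 to 1000 counts, 64.0% in ASO-1235 and 67.5% in ASO-NC had even numbers, as if both mates of each pair had been counted, and with counts halved the interval was 2.41 to 27.9. Among 579 genes whose counts over both libraries summed to 50 to 60, as those of LGR5 did at 55, 3 had a ratio at least as high, LGR5 included. An antisense gene without a symbol (ENSG00000257761, minus strand of chromosome 12, 71582293 to 71583852) shares exonic sequence with LGR5. It had 59 counts in ASO-1235 and 12 in ASO-NC, a ratio of 5.88 (3.13 to 12.0, or 2.40 to 17.3 on halved counts). The strand setting of the counting is not given, so it is not known how reads in the shared sequence were assigned. The summed counts of both genes were 106 in ASO-1235 and 20 in ASO-NC (ratio 6.34, 3.90 to 10.8). They were summed after the values were seen, so the sum is no separate support for the ratio of LGR5. No interval on halved counts was computed for the sum. TSPAN8, which overlaps LGR5 in introns, had 78 counts in ASO-1235 and 84 in ASO-NC.

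LGR4, the widely expressed R-spondin receptor, held most of the transcripts of this receptor family. It had 2176 counts (55.7 CPM) in ASO-1235 and 2194 counts (47.0 CPM) in ASO-NC, a ratio of 1.19 (1.12 to 1.26). The third relative, LGR6, is no member, but it had 131 counts (3.35 CPM) in ASO-1235 and 310 counts (6.64 CPM) in ASO-NC, a ratio of 0.505 (0.409 to 0.622; 0.373 to 0.679 on halved counts). LGR6 was therefore called lower while LGR5 was called higher, and their intervals did not overlap. Per length of the longest transcript, LGR4 made up 89.9% of the summed TPM (a length-corrected level scaled to the same total in each library) of the 3 receptors in ASO-1235 and 82.6% in ASO-NC. LGR6 made up 7.90% in ASO-1235 and 17.04% in ASO-NC, and LGR5 2.19% in ASO-1235 and 0.340% in ASO-NC. The order of the receptors by TPM, LGR4 above LGR6 above LGR5, was the same in both libraries. R-spondin ligands were scarcely seen: 0 of 4 reached 1 CPM, and RSPO4, which had the most, had 10 counts in ASO-1235 and 12 in ASO-NC.

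FZD6, a frizzled receptor known mainly for planar cell polarity, had the largest ratio among the 7 members above 10 CPM in both libraries. It had 776 counts (19.9 CPM) in ASO-1235 and 654 counts (14.01 CPM) in ASO-NC. The ratio of 1.42 (1.28 to 1.58) lay above 1 on halved counts too (1.22 to 1.65) but under the 1.5-fold asked for. Among 718 genes of similar abundance, 4.74% had a ratio at least as high. Its transcript is poor in GC (38.4%), and the median log2 ratio of the 2804 genes with the lowest GC content was 0.21. With the trend on GC content and length removed, the log2 ratio of FZD6 was 0.31 in place of 0.50. LRP6, a co-receptor of Wnt ligands, had 1156 counts (29.6 CPM) in ASO-1235 and 1491 counts (31.9 CPM) in ASO-NC, a ratio of 0.927 (0.858 to 1.002). LRP6 is in the same GC group (40.2% GC), and its log2 ratio was −0.34 with the trend removed, against −0.11 as measured. Its paralogue LRP5 held 88.9% of the TPM of both co-receptors in ASO-1235 and 89.5% in ASO-NC.

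Among the 10 frizzled genes, FZD6 ranked highest by TPM in the ASO-1235 library, with 27.7% of the summed TPM, and second in the ASO-NC library with 21.8%. FZD4 had 22.1% in ASO-1235 and 24.7% in ASO-NC, the highest share there. FZD5, which is also a Wnt receptor, was the single frizzled gene called, with 422 counts (10.8 CPM) in ASO-1235 and 275 (5.89 CPM) in ASO-NC, a ratio of 1.83 (1.57 to 2.14). In its bin of abundance 5.44% of genes were called higher.

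**Figure D2:**
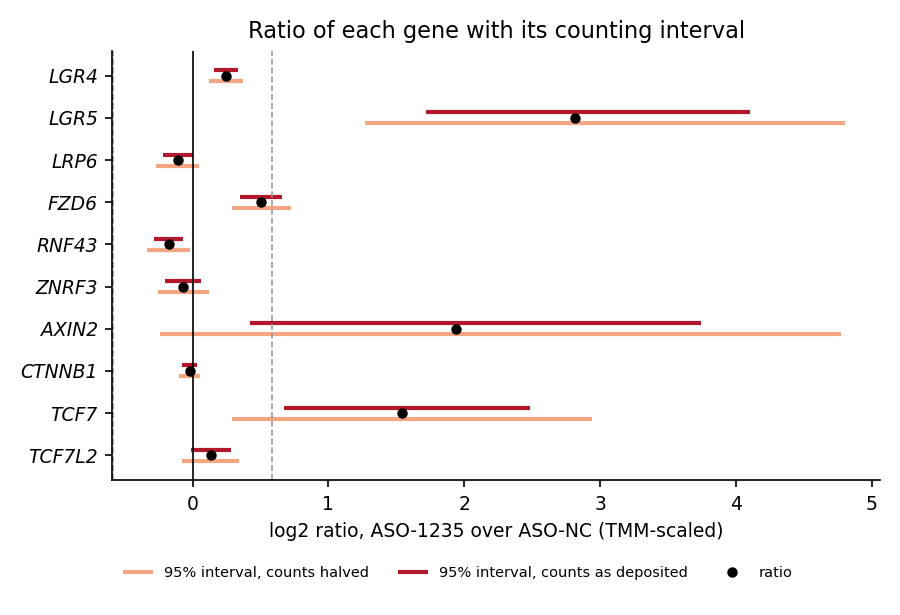
Log2 ratio of ASO-1235 over ASO-NC for the 10 genes (points), ordered by role, with exact 95% intervals from counts as deposited (dark lines) and from halved counts (light lines). Dashed lines mark 1.5-fold; LGR5, AXIN2 and TCF7 have wide intervals to the right of 0, with that of AXIN2 crossing 0 on halved counts, and the other 7 points lie within 1.5-fold.

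The receptor ligases, both feedback genes of the pathway, were not called in either direction. RNF43 had 1177 counts (30.1 CPM) in ASO-1235 and 1591 counts (34.1 CPM) in ASO-NC, a ratio of 0.885 (0.820 to 0.954). ZNRF3 had 843 counts (21.6 CPM) in ASO-1235 and 1058 counts (22.7 CPM) in ASO-NC, a ratio of 0.953 (0.869 to 1.04) whose interval included 1. The share of RNF43 in the TPM of both ligases was 63.2% in ASO-1235 and 64.9% in ASO-NC. Among 718 genes of similar abundance, 75.9% had a ratio at least as high as that of RNF43, and 59.3% at least as high as that of ZNRF3. Exons of RNF43 overlap those of TSPOAP1-AS1 on the opposite strand, which had 67 counts in ASO-1235 and 97 in ASO-NC.

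AXIN2, the scaffold whose transcript is widely read as a gauge of beta-catenin activity, was nearly undetected. The gene spans 65528563 to 65561647 on chromosome 17 (minus strand). It had 16 counts (0.410 CPM, 0.234 to 0.665) in ASO-1235 and 5 counts (0.107 CPM, 0.0348 to 0.250) in ASO-NC, so the Poisson intervals overlapped. The ratio was 3.83 (1.34 to 13.4), and on halved counts its interval included 1 (0.849 to 27.4). Of 794 genes with 19 to 23 counts over both libraries, 9.70% had a ratio at least as high. AXIN1, the constitutive scaffold, had 2234 counts in ASO-1235 and 2585 in ASO-NC and made up 98.9% of the TPM of both scaffolds in ASO-1235 and 99.7% in ASO-NC. CTNNB1, the gene of beta-catenin and the highest of the 10 by TPM in both libraries, had 4875 counts (125 CPM) in ASO-1235 and 5919 counts (127 CPM) in ASO-NC. Its ratio of 0.985 (0.948 to 1.02) had the narrowest interval of the members and included 1.

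TCF7, which encodes the factor TCF-1, spans 134114711 to 134151865 on chromosome 5 (plus strand) and has 24 annotated transcripts. It had 39 counts (0.999 CPM, 0.710 to 1.37) in ASO-1235 and 16 counts (0.343 CPM, 0.196 to 0.556) in ASO-NC. The intervals of the libraries did not overlap, and the ratio was 2.91 (1.59 to 5.59; 1.22 to 7.67 on halved counts). TCF7 stood at the edge of the minimum, at 1.03 CPM by total count in ASO-1235. Among the 579 genes with sums of 50 to 60 counts, 35 had a ratio at least as high. Its exons overlap those of SKP1 on the opposite strand, which had 386 counts in ASO-1235 and 351 in ASO-NC. TCF7L2, the gene of TCF-4, had 712 counts (18.2 CPM) in ASO-1235 and 776 counts (16.6 CPM) in ASO-NC, a ratio of 1.097 (0.990 to 1.22). Of the TPM of the 4 TCF/LEF genes, TCF7L2 held 38.3% in ASO-1235 and 33.8% in ASO-NC, and LEF1 held 37.8% in ASO-1235 and 37.0% in ASO-NC. TCF7L1 held 22.3% in ASO-1235 and 28.7% in ASO-NC, and TCF7 1.63% in ASO-1235 and 0.539% in ASO-NC. LEF1 had the highest share in ASO-NC. In ASO-1235 TCF7L2 and LEF1 lay close together (9.56 and 9.43 TPM on 712 and 590 counts), so their order there is not settled. TCF7 was last in both libraries.

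**Figure D3:**
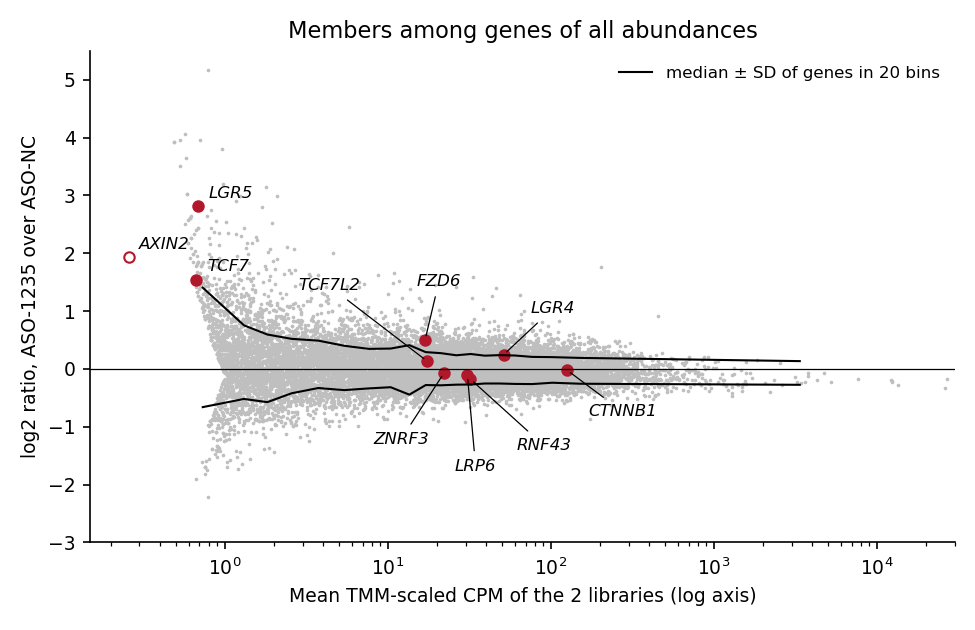
Log2 ratio of ASO-1235 over ASO-NC against mean CPM (log axis) for the genes at the minimum (grey) and the 10 genes (red; AXIN2, open, is below the minimum), with black lines at the median plus and minus 1 SD in 20 bins of abundance. LGR5, TCF7 and AXIN2 lie at the left end where ratios scatter most, and the axis leaves out 2 genes.

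The scatter of ratios depended on abundance. In the lowest of 20 bins, which holds LGR5 and TCF7, the SD of the log2 ratio over genes was 1.03 and the median 0.37. Within that bin 2.09% of genes had a ratio at least as high as that of LGR5 and 11.1% at least as high as that of TCF7. In the bins of the 7 members above 10 CPM, between 0.418% and 2.92% of genes were called higher. LGR4 was the next after FZD6, with 15.7% of its bin at a ratio at least as high. The log2 ratio also fell with GC content across all genes, with medians of 0.21, 0.10, −0.01, −0.12 and −0.19 in 5 equal groups of genes ordered from low to high GC content. LGR5 (43.8% GC) and TCF7 (54.9% GC) had log2 ratios of 2.71 and 1.63 with the trend removed, in place of 2.81 and 1.54 as measured. That of LGR4 (42.1% GC) was 0.10 in place of 0.25. This is a ratio of 1.07, below the counting interval of LGR4 (1.12 to 1.26).

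**Figure D4:**
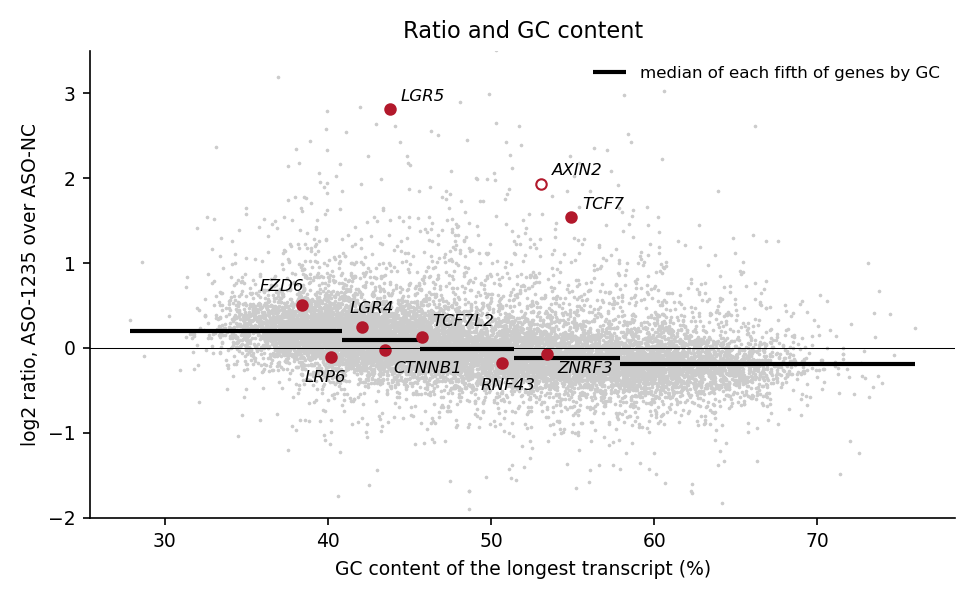
Log2 ratio of ASO-1235 over ASO-NC against GC content of the longest transcript for genes at the minimum (grey) and the 10 genes (red; AXIN2 open), with the median of each of 5 equal groups by GC content as a black line. The medians step down from 0.21 to −0.19, FZD6 and LGR4 lie in the GC-poor range, and the axis leaves out 12 genes.

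Wider lists of the pathway, chosen with earlier results of these libraries known, held 150 genes, members included, of which 108 reached the minimum. Of these, 9 (8.33%) were called higher and 2 (1.85%) lower, near the 6.4% and 2.95% of all genes, and the median log2 ratio was 0.04 against 0.00 over all genes. The genes called higher were LGR5, TCF7, FZD5, WNT2B, WNT4, WNT5B, USP6, PYGO1 and TLE4, and those called lower LGR6 and APCDD1. Of the 9 called higher, 6 reached 1 CPM through the ASO-1235 library alone, namely LGR5, TCF7, WNT5B, USP6, PYGO1 and TLE4. All of these lie in the lowest bin of abundance except PYGO1, which lies in the next one, where 21.3% of genes were called higher. USP6, a deubiquitinase gene, had 47 counts in ASO-1235 and 32 in ASO-NC (ratio 1.76, 1.097 to 2.84), and it was no longer called on halved counts (0.892 to 3.55).

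Of 19 Wnt ligand genes 9 reached the minimum, and 3 of these (33.3%) were called higher and 0 lower. Of all genes, 6.4% were called higher and 2.95% lower. Over the bins of abundance of these 9 ligands, a mean of 21.6% of genes were called higher and 9.4% lower. WNT3A, WNT5A, WNT5B and WNT11 reached it through the ASO-1235 library alone, so these low ligands had to be higher there by total count. The ligands left out went either way. WNT6 (12 counts in ASO-1235 and 16 in ASO-NC), WNT8B (27 in ASO-1235 and 39 in ASO-NC) and WNT2 (0 in ASO-1235 and 2 in ASO-NC) were lower in ASO-1235. WNT3 (12 in ASO-1235 and 2 in ASO-NC), WNT8A (6 in ASO-1235 and 0 in ASO-NC) and WNT10A (5 in ASO-1235 and 0 in ASO-NC) were higher. The other 5 of the 9, WNT2B, WNT4, WNT7B, WNT9A and WNT10B, reached the minimum in both libraries. Their ratios were above 1 too, from 1.04 to 2.02. The intervals of WNT7B and WNT10B included 1, and that of WNT9A did on halved counts (0.980 to 1.56). The median log2 ratio of all 9 was 0.51, and the part of the minimum in it was not tested. WNT5B, a ligand mostly studied outside the beta-catenin branch, had 45 counts in ASO-1235 and 10 in ASO-NC, a ratio of 5.38 (2.67 to 12.0). It lies in the lowest bin of abundance, where 36.1% of genes were called higher. WNT2B had 88 counts in ASO-1235 and 52 in ASO-NC (ratio 2.02, 1.42 to 2.91), and WNT4, a ligand of mammary development, 269 in ASO-1235 and 204 in ASO-NC (ratio 1.58, 1.31 to 1.90). In their bins of abundance 15.9% and 6.82% of genes were called higher. WNT7B, the ligand with the highest CPM, had 972 counts in ASO-1235 and 1119 in ASO-NC, a ratio of 1.04 (0.952 to 1.13). PORCN, the enzyme that adds the lipid Wnt ligands need for release, was at 0.674 (0.591 to 0.767), close to but short of 1.5-fold lower, and the carrier WLS was at 0.984 (0.930 to 1.04).

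Of 22 Dishevelled and destruction complex genes at the minimum, 0 were called in either direction, with a median of −0.02 and log2 ratios from −0.30 to 0.46. Of these, 19 lay above 10 CPM, and over the bins of abundance of all 22 a mean of 2.81% of genes were called higher and 1.29% lower, so a count of 0 is near the background. DVL3, which relays the signal from frizzled, was at 0.893 (0.870 to 0.918). Of 23 TCF/LEF factors and cofactors, 3 (13.04%) were called higher and 0 lower, with a median of −0.01, beside 6.4% higher and 2.95% lower of all genes. The 3 called genes are the 3 of the list that reached 1 CPM through the ASO-1235 library alone, in bins where 36.1% and 21.3% of genes were called higher. Besides TCF7 these were PYGO1, a cofactor that binds BCL9, with 83 counts in ASO-1235 and 38 in ASO-NC (ratio 2.61, 1.76 to 3.94), and TLE4, a co-repressor of TCF factors, with 62 in ASO-1235 and 26 in ASO-NC (ratio 2.85, 1.78 to 4.70). Among 17 secreted and membrane inhibitors, 7 reached the minimum and 1 was called: APCDD1 had 168 counts in ASO-1235 and 310 in ASO-NC, a ratio of 0.648 (0.534 to 0.784), in a bin where 4.04% of genes were called lower. Of 11 non-canonical receptors and polarity genes at the minimum 0 were called, with a median of −0.02. Over their bins of abundance a mean of 8.16% of genes were called higher and 3.12% lower.

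Genes that beta-catenin is known to turn on were called about as often as all genes. Of 34 such genes 26 reached the minimum, 2 (7.69%) were called higher (LGR5 and TCF7) and 1 (3.85%) lower (APCDD1), beside 6.4% and 2.95% of all genes, and the median log2 ratio was 0.01. Those with the highest CPM were CCND1, the gene of cyclin D1, at 1.003 (0.979 to 1.03) and TBX3, a transcription factor gene of mammary development, at 1.01 (0.983 to 1.04). In both, the intervals included 1.

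**Figure D5:**
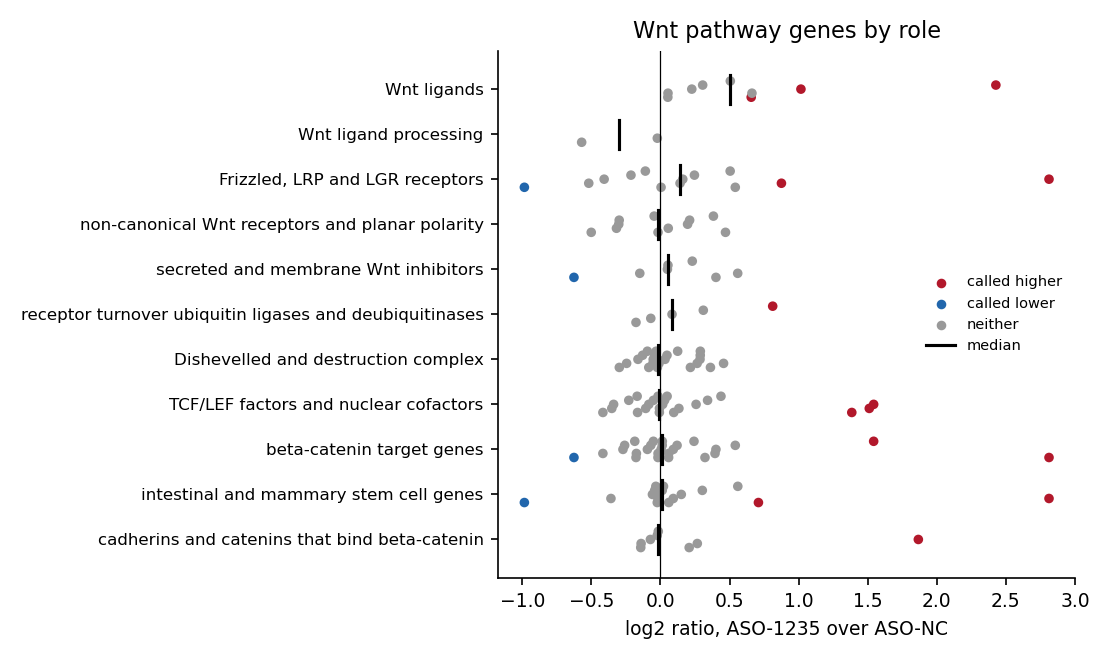
Log2 ratio of ASO-1235 over ASO-NC for pathway genes at the minimum, grouped by role (rows; a gene can be in several), with genes called higher in red, called lower in blue and the median of each row as a black bar. Medians lie near 0 in most rows; that of Wnt ligands is at 0.51, with 4 of the 9 ligands shown at the minimum in the ASO-1235 library alone.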

How the data were processed

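The deposited file gives unnormalized counts for each gene in 1 ASO-1235 and 1 ASO-NC library; its columns were matched to samples by genotype label, since the title of the ASO-1235 library begins with Si. Per the submitters' processing notes, STAR 2.7.11a, featureCounts 2.0.6 and the build hg38 were used in some role. The sources used here state neither the annotation release nor the strand and pair settings. Another 3 lines held no counts and were left out. All 62699 IDs matched a symbol or their own ID. Positions, lengths and GC content of the longest transcript came from GENCODE 29 (58206 IDs found).

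The members and lists were chosen with earlier results of these data known. TMM factors came from edgeR 4.0.16 and size factors from DESeq2 1.42.0 (R 4.3.3), for scaling alone. TMM factors were 1.03 for ASO-1235 and 0.971 for ASO-NC, computed over the 14352 genes with at least 1 CPM by total count in at least 1 library. A 0 was replaced by a floor of 3 counts in ratios. Intervals of ratios are exact (Clopper-Pearson) given the sum of both counts, cover counting error only, and are too narrow if mates were counted singly. Amplified reads carried no molecular identifiers and need not be separate molecules. TPM divides counts by the length of the longest transcript and was used only for shares and order within a library, since it is not TMM-scaled. As an alternative, a robust spline regression on GC content and log2 length (5 degrees of freedom each, statsmodels 0.14.6) was subtracted. The calculation was tested on simulated data. All 10 members are described; of the other genes, the text names part of those that a rule selects (the 2 most abundant and up to 3 called each way per list), and the relatives and overlapping genes of members beside these were chosen after their values were seen. Python 3.11.15, scipy 1.17.1 and matplotlib 3.10.9 were used.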

Additional observations from a re-analysis of the deposited data

How the results depend on the processing

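LGR5 and TCF7 were called higher with DESeq2, upper-quartile or total-count scaling, halved counts, a 2-fold threshold, 99% intervals, no minimum, and the GC and length trend removed. With a minimum of 5 CPM, 0 members were called, because neither reached it. FZD6 was also called with total-count scaling (ratio 1.505), and AXIN2 with no minimum. With no minimum, a minimum of 5 CPM and 2-fold, 2382, 279 and 363 genes of the whole table were called higher and 1102, 101 and 74 lower. Among the log2 ratios of members under other scalings and without the trend, 34 of 39 stayed within their counting interval. The ratios of ZNRF3 (0.933 to 1.01) and CTNNB1 (0.913 to 1.04) crossed 1. No trend-removed value was computed for AXIN2, which is below the minimum.

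No paired analysis was possible because each group has 1 library. Depth limits LGR5, TCF7 and AXIN2: their ASO-NC counts are 8, 16 and 5.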

Other observations

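Beta-catenin also holds cadherins at cell junctions, and 8 of 10 cadherin and catenin genes reached the minimum. CDH2, the gene of N-cadherin, was the one called, with 122 counts in ASO-1235 and 40 in ASO-NC (ratio 3.65, 2.53 to 5.35). It reached 1 CPM through the ASO-1235 library alone and lies in a bin of abundance where 15.9% of genes were called higher, against 6.4% of all genes. The abundant junction genes lay close to 1: CDH1, the gene of E-cadherin, was at 0.906 (0.891 to 0.921) and JUP, the gene of plakoglobin, at 0.951 (0.934 to 0.968).

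Of 20 intestinal and mammary stem cell genes, 17 reached the minimum, with a median log2 ratio of 0.01. LGR5 and PROM1 (11.8%) were called higher and LGR6 (5.88%) lower, beside 6.4% higher and 2.95% lower of all genes. In the bins of abundance of LGR5 and PROM1, 36.1% and 21.3% of genes were called higher, and in that of LGR6 4.04% lower. PROM1, the gene of CD133, had 67 counts in ASO-1235 and 49 in ASO-NC (ratio 1.64, 1.11 to 2.41), and its interval included 1 on halved counts (0.942 to 2.87). CD44 and the integrin gene ITGB1, the most abundant of the list, were both at 0.988, with intervals that included 1 (0.933 to 1.05 for CD44 and 0.962 to 1.02 for ITGB1).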
